A study of Capitella teleta with 12 samples.

Results

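Transcripts that peak at the 16-cell stage of the annelid *Capitella teleta* were examined in single embryos of the 8-, 16- and 32-cell stages. Of 32415 gene models in the count table, 35 were chosen by their measured levels, given as CPM (the count of a gene scaled to a common total per embryo). Each had at least 20 CPM at the 16-cell stage, at least 1.5 times its level at both the 8-cell and the 32-cell stage, and an 8-cell to 32-cell ratio between 0.67 and 1.5. In addition, the lowest of the 3 embryos of the 16-cell stage lay above the highest of the 9 other embryos. A stage level is the summed count of a gene over the embryos of a stage, divided by their summed totals. These conditions use the values of every embryo, so the differences between stages below describe the transcripts and are not tests of them.

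In spiral cleavage the large macromeres give off quartets of smaller micromeres in a fixed order. The second quartet, present at the 16-cell stage of *Capitella*, includes micromere 2d, which acts as an organizer of the dorsal-ventral axis. An early embryo carries maternal transcripts laid down in the egg, which are cleared over time while transcription from the embryo's own genome begins.

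The data comprised 4 whole embryos of the 8-cell stage, 3 of the 16-cell stage (during organizer activity) and 5 of the 32-cell stage (after it). The labels name no treatment, genotype or brood of origin. RNA was read by CEL-Seq, which copies each polyadenylated transcript from its 3′ end with a barcode for the embryo and a unique molecular identifier (UMI). Total counts ranged from 286145 to 451149 at the 8-cell stage, from 313356 to 491733 at the 16-cell stage and from 236321 to 408777 at the 32-cell stage. A value of 0 in a single embryo allows up to 3 counts, which is between 6.10 and 12.7 CPM depending on the total and covers counting error only. Because a whole embryo was read, more cells with a transcript and more transcript per cell cannot be told apart, and CPM gives a share of the captured RNA, not an amount per embryo.

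All 35 gene models matched a locus tag of the Capca1 assembly (CAPTEDRAFT_ followed by the number given here), and 0 had a gene symbol there, so they are named by number and no function is assigned. In the whole count table only 4 gene models had a symbol. Of the gene models, 5786 reached 20 CPM at the 16-cell stage, 227 of these were at least 1.5 times above both other stages, and 145 also had 8- and 32-cell levels within the allowed ratio. Overlap between embryos removed 110 of these and left 35. With other scalings fewer were left, 23 with TMM-scaled totals and 19 with DESeq2 size factors. The separation of the 16-cell embryos from all 9 others was rare in itself, at 1.41% of the 11854 tested genes and 2.37% of the genes of 20 CPM or more. With the conditions turned round, 4 gene models had a trough at the 16-cell stage. There the level of 20 CPM was asked of both the 8- and the 32-cell stage, which 5013 gene models reached. Troughs were counted over the totals only, not with the other scalings.

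**Figure D1:**
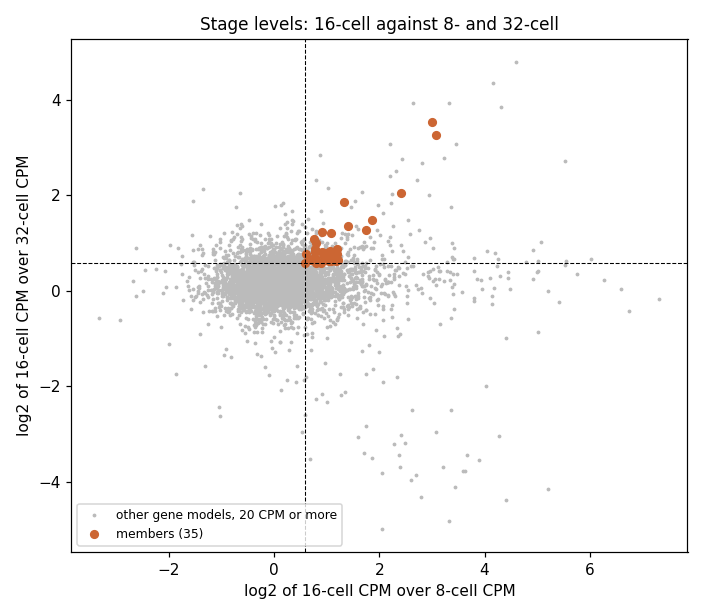
Each point is a gene model of at least 20 CPM at the 16-cell stage (5779 drawn; 7 without a count at the 8- or 32-cell stage are left out), with the log2 ratio of its 16-cell to its 8-cell level on the horizontal axis and to its 32-cell level on the vertical axis. Dashed lines mark a ratio of 1.5, and the 35 chosen transcripts (orange) lie to the right of and above both lines, mostly close to their crossing, while some other gene models (grey) lie farther out.

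The peaks were mostly shallow. The ratio of the 16-cell level to the higher of the other stages had a median of 1.70 and a range of 1.505 to 8.39. It was 4 or more for 3 transcripts, between 2 and 4 for 5, and under 2 for 27. Levels at the 16-cell stage ran from 21.2 to 229 CPM, with 17 transcripts under 50 CPM and 12 at 100 CPM or more. The strong peaks were all of low level, and every transcript above 120 CPM had a ratio under 2.

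Gene model 207452 (positions 265898 to 267735, where the annotation leaves the scaffold unnamed) had the largest ratio. Its levels were 0, 0, 6.65 and 3.25 CPM in the 8-cell embryos, 31.9, 26.0 and 18.3 CPM in the 16-cell embryos, and 6.71, 0, 6.11, 0 and 0 CPM in the 32-cell embryos. It was close to absent before and after, and each 16-cell embryo exceeded the highest other embryo by at least 2.73 times. On 4, 30 and 4 counts at the 8-, 16- and 32-cell stages, the ratio of 8.39 had an exact 95% interval from counting error of 2.96 to 32.8. It met the conditions in 11 of 17 other settings (5 changes of scaling, depth or averaging and the removal of each embryo in turn). It was lost with thinned counts, with counts converted for UMI collisions, and without 8-cell replicate 2 or 3 or 32-cell replicate 1 or 3. Leaving out an 8- or 32-cell embryo cannot undo the separation and does not change the 16-cell level. In these removals the peak over both other stages remained. Only the allowed ratio of the 8-cell to the 32-cell level, which rests on few counts, was no longer met.

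Gene model 195060 (positions 265872 to 270060) was the most even of the strong peaks. Its position numbers enclose those of gene model 207452, but the gene models beside them differ, so they are not an overlapping pair on 1 scaffold. Gene model 195060 had similar levels in all 16-cell embryos. It had 41.5, 45.0 and 40.7 CPM in the 16-cell embryos, against 0, 3.04, 13.3 and 13.0 CPM in the 8-cell embryos. The 32-cell embryos had 16.8, 14.7, 9.16, 0 and 8.46 CPM, so that the groups were far apart although embryos of the 8- and 32-cell stages differed among themselves. Its ratio was 4.16 (counting interval 2.34 to 7.80), and it met the conditions in 14 of the 17 settings. It did not meet them without 8-cell replicate 3 or 4 or 32-cell replicate 4. There too the peak and the separation remained, and only the ratio of the 8-cell to the 32-cell level left the allowed range.

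Gene model 207905 (positions 188963 to 190116) rested largely on 1 embryo. The 16-cell embryos had 12.8, 14.2 and 52.9 CPM, and the highest of these, 16-cell replicate 3, held 26 of the 36 counts of the stage. The other embryos lay between 2.22 and 6.99 CPM at the 8-cell stage and between 0 and 4.23 CPM at the 32-cell stage. All 16-cell embryos were above all others, and it was kept in 11 of the 17 settings. Without 16-cell replicate 3 the conditions were no longer met, because the 16-cell level fell below the required level. They were also not met without any of 5 embryos of the other stages. In those removals only the ratio of the 8-cell to the 32-cell level left the allowed range.

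**Figure D2:**
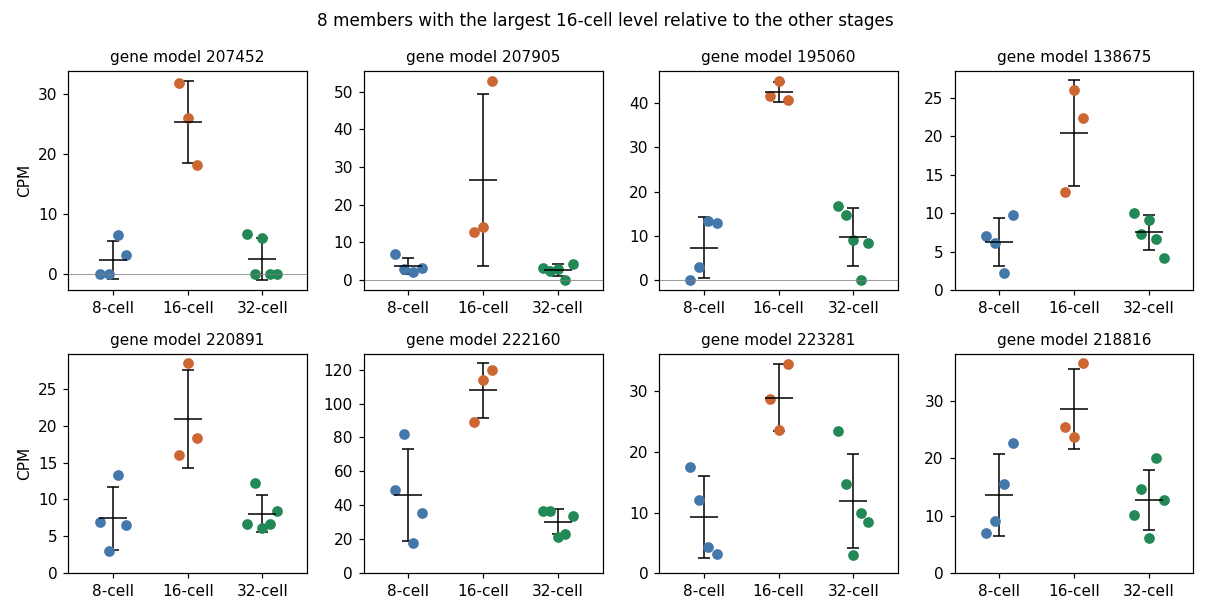
CPM (vertical axes, linear) of the 8 transcripts with the largest ratio, by stage, with 1 point per embryo and the mean with its SD in black (4, 3 and 5 embryos at the 8-, 16- and 32-cell stages). Gene models 207452 and 195060 show 3 high 16-cell embryos, gene model 207905 has 1 embryo at 52.9 CPM well above the others, and gene model 223281 has a 32-cell embryo at 23.5 CPM just below its lowest 16-cell embryo.

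The 5 next transcripts peaked between 2 and 4 times. Gene model 222160 (positions 738879 to 744214) was the most abundant of these, with 48.9, 82.2, 17.7 and 35.7 CPM in the 8-cell embryos and 89.4, 113.6 and 120.0 CPM in the 16-cell embryos. Its 32-cell embryos lay lower and closer together, at 36.9, 36.7, 21.4, 23.4 and 33.9 CPM. The gap to the other embryos was therefore set by 8-cell replicate 2 and amounted to 1.09 times. Gene models 138675 and 220891 had 21.2 CPM each at the 16-cell stage, against 5.82 and 8.01 CPM at the 8-cell stage. Their 32-cell levels were 7.64 and 8.28 CPM. Gene models 223281 and 218816 both had 29.3 CPM at the 16-cell stage and were barely separated, with gaps of 1.01 and 1.04 times.

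The other 27 transcripts were present at every stage, with 16-cell levels less than 2 times the higher other stage. Gene model 55310 (positions 116860 to 117622), the most abundant at the 16-cell stage, had 119, 192, 146 and 136 CPM in the 8-cell embryos, 227, 220.2 and 238 CPM in the 16-cell embryos and 121, 115, 156, 164 and 118 CPM in the 32-cell embryos. The 16-cell embryos lay close together (228 ± 8.99 CPM, SD, n = 3), and the highest other embryo was of the 8-cell stage. Gene models 218782, 211622, 207754 and 176337 followed with 222, 209, 189 and 165 CPM at the 16-cell stage. Gene model 218782 had the smallest ratio of all, 1.505, and gene model 225590 the next smallest, 1.51. Just outside the ratio, gene models 179885 and 103007 met every other condition with 1.49 each, and just below the level of 20 CPM lay gene models 184437 and 126125 with 19.6 CPM each.

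Among these moderate peaks, 4 stayed in the group under each of the 17 settings. These were gene models 223174, 192399, 224213 and 176337. Gene model 192399 (positions 153917 to 155472) had 59.4, 57.8, 62.1 and 48.7 CPM in the 8-cell embryos, 111.7, 99.4 and 111.8 CPM in the 16-cell embryos and 47.0, 70.9, 70.2, 66.9 and 42.3 CPM in the 32-cell embryos. Its lowest 16-cell embryo was 1.40 times the highest other embryo, the widest gap among transcripts with a ratio under 2. Gene model 224213 (positions 447674 to 449822) had 176, 149 and 159 CPM in the 16-cell embryos, with 92.4 CPM at the 8-cell and 86.6 CPM at the 32-cell stage. Gene model 176337 (positions 82840 to 84148) had 169, 173 and 157 CPM in the 16-cell embryos, with 72.1 CPM at the 8-cell and 97.5 CPM at the 32-cell stage. Its span overlaps that of the neighbouring gene model, so that their reads may have been divided between them. Gene model 223174 (positions 77105 to 78615) was lower, at 35.1, 35.5 and 32.5 CPM in the 16-cell embryos, with 18.2 CPM at the 8-cell and 14.7 CPM at the 32-cell stage.

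The step into the 16-cell stage was larger than the step out of it for most transcripts. The median ratio was 2.01 for the 16-cell over the 8-cell stage and 1.73 for the 16-cell over the 32-cell stage, and 25 of the 35 were higher at the 32-cell than at the 8-cell stage. Over all tested genes the median log2 fold change in edgeR was 0.079 for the 16-cell and 0.089 for the 32-cell over the 8-cell stage. In edgeR's quasi-likelihood F test on all genes, with Benjamini-Hochberg adjustment at 0.05, 17 were called higher at the 16-cell than at the 8-cell stage, where 5.52% of all tested genes were (9.43% in either direction). At the 32-cell stage 7 were called lower than at the 16-cell stage, where 0.472% of all tested genes were (2.21% in either direction). These 7 were among the 17, and 18 were called in neither step. Across the 3 stages 15 were called (17.2% of all genes), and 1 was called higher at the 32-cell than at the 8-cell stage (11% of all genes, with 8.98% lower and 20% in either direction). The conditions used the same values, so these counts carry no information beyond the choice. All 35 had at least 10 counts over the 12 embryos and were tested. Leaving out single embryos changed these counts. Across the stages 7 were called without 16-cell replicate 3. In the step to the 16-cell stage 11 were called without 16-cell replicate 2 and 7 without replicate 3. In the step to the 32-cell stage 2, 3 and 3 were called without 16-cell replicates 1, 2 and 3, and 4 without 32-cell replicate 1, 2, 4 or 5. The replicate block gave 15 and 4 in these steps, and DESeq2 gave 10 and 1. Calls over all tested genes, in either direction, changed too. In the step to the 16-cell stage 1118 became 740 without 16-cell replicate 2 and 803 without replicate 3. In the step to the 32-cell stage 262 became 233, 208 and 198 without 16-cell replicates 1, 2 and 3. It was 237 to 256 without 32-cell replicate 1, 2, 4 or 5. Over all tested genes the replicate block gave 1055 and 255, and DESeq2 833 and 211.

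Summed over the 35 transcripts, the level averaged 1425 ± 112 CPM over the 8-cell embryos (SD, n = 4), 2777 ± 141 CPM over the 16-cell embryos (SD, n = 3) and 1575 ± 138 CPM over the 32-cell embryos (SD, n = 5). The single 16-cell embryos had sums of 2652, 2749 and 2930 CPM, which the choice of transcripts high in each of them made high. The highest sum outside the stage was 1766 CPM, in 32-cell replicate 2. For single transcripts the embryo nearest to the 16-cell embryos was of the 32-cell stage (5 embryos) in 24 cases and of the 8-cell stage (4 embryos) in 11. The gap was under 1.1 times for 14 transcripts and at least 1.5 times for 3. By counting error alone, the interval of the ratio lay above 1 for 29 transcripts and reached 1 or less for 6. The choice required a ratio of at least 1.5 in the same counts, so these intervals are no test of the peaks. The largest count of any of them in an embryo was 117.

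**Figure D3:**
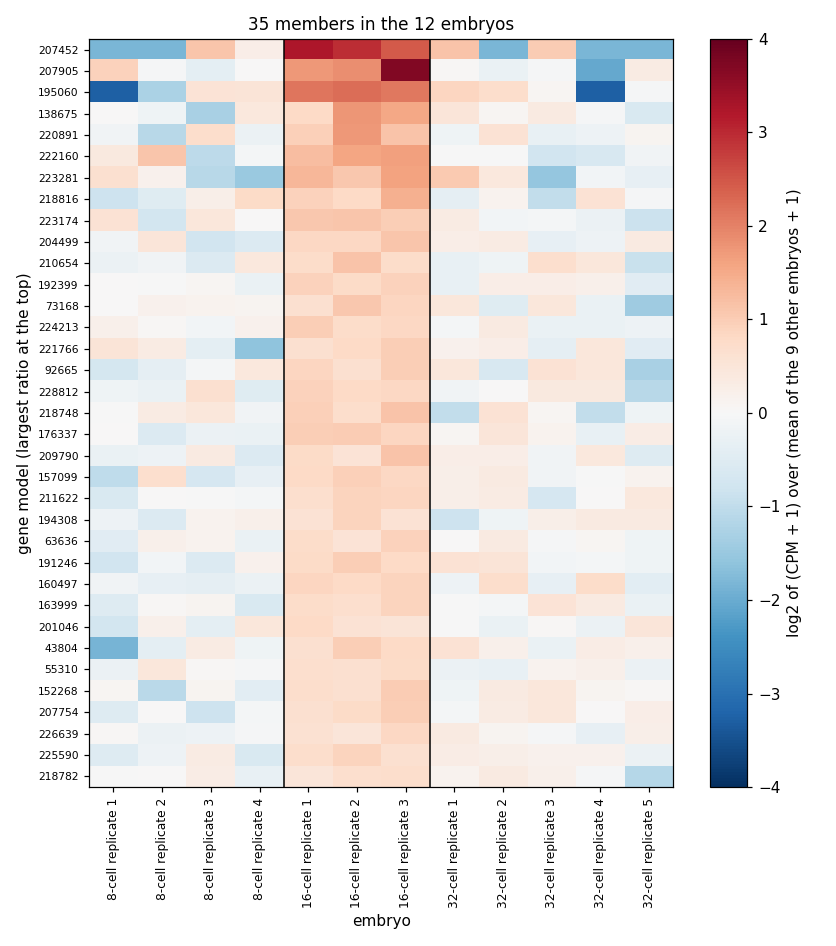
The 35 transcripts (rows, largest ratio at the top) in the 12 embryos (columns by stage), as the log2 of CPM + 1 over the mean of the 9 embryos of the 8- and 32-cell stages + 1. Each 16-cell embryo is at 0.47 or more, while the other embryos reach up to 1.13, and the colour fades from the strong peaks at the top to the shallow ones below.

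The 16-cell embryos did not contribute equally. Replicate 3 was the highest of the stage for 18 transcripts (51.4%), replicate 2 for 13 and replicate 1 for 4 (11.4%). Among all 5786 genes of 20 CPM or more these embryos were highest for 36.2%, 33.2% and 30.6%. Replicate 3 also had the largest total of all embryos, 491733, and replicate 1 the smallest of its stage, 313356. With every embryo thinned at random to the smallest total, 31 gene models met the conditions, and 15 of them were among the 35.

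Whether such a peak is found again was read in embryos that had no part in the choice. The conditions were applied to 9 embryos, leaving out 1 embryo of each stage with the same replicate number, and the 3 left out were examined afterwards. This reading was added after the data had been seen. The choice picked 92, 103 and 67 gene models without the embryos numbered 1, 2 and 3. These 262 picks held 214 distinct gene models, so some enter the pooled shares more than once. The left-out 16-cell embryo was the highest of the 3 for 48, 49 and 39 of them, or 51.9% in all, compared with 35.1% of all genes of 20 CPM or more. Levels at least 1.5 times both other embryos were found for 47 of the 262 picks (17.9%), compared with 6.35% of those genes. The genes compared with were not matched to the picks by count, and single embryos of low count vary more. How much of the difference in these shares comes from counting noise was not tested. The median ratios, over genes with a count in the embryo divided by, shrank outside the embryos used. When picked, the median ratios to the higher of the other stages were 1.82, 1.78 and 1.77. In the left-out embryos the ratio was taken to each stage alone. There the 16-cell over 8-cell median was 1.52, 1.25 and 1.41 and the 16-cell over 32-cell median 1.18, 1.08 and 1.33. For a gene, the ratio to 1 stage is never below that to the higher of both, so the measures are not the same. Among all genes of 20 CPM or more these medians lay between 1.02 and 1.07 and between 1.04 and 1.13. Each reading rests on 1 embryo per stage and the 3 choices share embryos, so no test was made. Of the 35 transcripts, 13 were picked in all 3 choices.

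**Figure D4:**
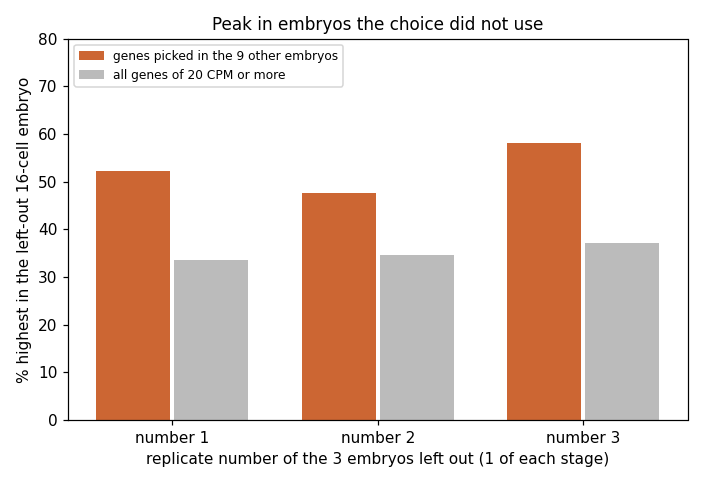
Percentage of gene models (vertical axis, from 0) with the highest level in the left-out 16-cell embryo, for the 3 sets of left-out embryos (horizontal axis). The bars of picked gene models (orange, left) stand at 52.2%, 47.6% and 58.2%, above those of all genes of at least 20 CPM (grey, right) at 33.5%, 34.7% and 37.2%.

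A single left-out 16-cell embryo gave a similar picture. Without 16-cell replicates 1, 2 and 3 the conditions picked 79, 87 and 51 gene models, and the left-out embryo lay above all 9 embryos of the other stages for 37, 33 and 28 of them. For all genes of 20 CPM or more this held for 12.1%, 13.1% and 14.3%. The 9 embryos it was set against had been chosen low, so only the left-out embryo is an independent value here. The same limit holds at the other stages, where the 16-cell embryos had been chosen high, so that the shares there are largely set by the choice. Left-out embryos of the other stages lay below all 16-cell embryos for 129 of 146 picks (88.4%) at the 8-cell stage and for 154 of 185 (83.2%) at the 32-cell stage, against 38.4% and 39.4% of all genes of that level.

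The position of the genes, which the choice did not use, showed little in common. The spans of the 35 gene models, introns included, had a median of 2719 bases (763 to 12547), compared with 2891 bases for 11772 tested genes with an annotated position and 3157 bases for those of 20 CPM or more. No gene model had another of the 35 as its direct neighbour (0 of 35), taking a drop in the start position as the border of a scaffold. Of 38 neighbouring gene models that were tested, 2 had a 16-cell level at least 1.5 times both other stages (5.26%), as did 6.69% of all tested genes. These were a neighbour of gene model 207452 and one of gene model 157099. A span that overlaps a neighbour was found for 1 of the 35 (2.86%) and for 4.46% of the tested genes.

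None of the TGF-β superfamily components that the study followed was among the 35 (0 of 32 in the table). The level was highest at the 16-cell stage for 7 components, and 11 reached 20 CPM there. *Activin Receptor 2*, the type II receptor of the Activin/Nodal branch, had the shape closest to a peak among the abundant ones (chosen here after its values were seen), with 149.95, 257 and 199 CPM at the 8-, 16- and 32-cell stages. Its ratio of 1.29 was below 1.5, and its lowest 16-cell embryo did not exceed all others. The ligand *activin/inhibin/myostatin-like 4* had a ratio of 1.12, with levels of 96.1, 164 and 146 CPM in the same order of stages. For *activin/inhibin/myostatin-like 5* the paper describes a rise to the 16-cell stage and a decrease at the 32-cell stage. It had 8.01, 9.78 and 2.55 CPM here, on 11, 12 and 4 counts, with a ratio of 1.22. A ratio of 1.5 or more was reached by *BMP10*, a BMP-branch ligand, *Follistatin*, which binds and blocks activins, and *Tolloid*, a protease that cleaves BMP antagonists, on 3, 4 and 3 counts at the 16-cell stage, so that these ratios rest on a handful of molecules. Of 19 components tested in edgeR, 2 were called higher (5.52% of all genes) and 1 lower (3.91%) at the 16-cell than at the 8-cell stage, and 1 was called higher (1.74%) at the 32-cell than at the 16-cell stage.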

How the data were processed

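Stage and replicate number of each whole embryo came from its label. The authors used a CEL-Seq pipeline with mapping to the *C. teleta* genome by Bowtie2 (the version of Bowtie2 was not found in the sources used here) and an HTSeq-based step that counts UMIs, followed by a binomial conversion to transcripts. The deposited counts are whole numbers and not normalized. Their highest values reach the same ceiling in most embryos, as unconverted UMI numbers would, so it is uncertain whether they hold that conversion, and they were used as deposited. The deposited CPM values are these counts scaled by the total of the embryo. The authors' table of their likelihood ratio test (DESeq2) holds fold changes and p-values and was not used here. Columns from other samples (0) and rows without a gene (0) did not occur.

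CPM over the totals was used throughout. Genes with at least 10 counts over the 12 embryos (11854) were tested in R 4.3.3 with edgeR 4.0.16 (TMM scaling, quasi-likelihood F test, all embryos in 1 fit, no covariates), and with DESeq2 1.42.0 as an alternative. The pipeline was tested on simulated data. The rule was applied in Python 3.11.15, and intervals of ratios are exact conditional 95% intervals of counts (scipy 1.17.1) that cover counting error only. The 35 transcripts, the lists and the alternatives were chosen with earlier results of these data known. Named gene models were the 12 with the largest ratio, the 8 with the highest 16-cell level, the 2 with the smallest ratio and the 2 just below it, TGF-β components if chosen, and others named for a stated reason after their values were seen. Of the gene models, 31968 matched a locus tag of the Capca1 annotation. Sequences, products and promoters were not analysed here. Embryos of a stage differed by more than sampling noise (chi-square per degree of freedom 1.81 to 3.02 over 19 pairs). The broods of the embryos are not given, so the spread is that between these embryos.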

Additional observations from a re-analysis of the deposited data

Results flagged for a closer look

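Of 48 groups of 4 or 5 embryos examined among the named gene models and their sum, 2 held an embryo far from the others by Dixon's criterion, and chance gives about 1 in 20. Gene model 224213 had 115 CPM in 32-cell replicate 2, where the other 32-cell embryos lay between 73.3 and 83.9 CPM. This embryo was still below all 16-cell embryos. Gene model 225590 had 29.6 CPM in 32-cell replicate 5, which had the lowest total count, where the others lay between 39.7 and 43.6 CPM. Without that embryo it did not meet the conditions.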

How the results depend on the processing

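The number of transcripts depended on the scaling. It was 35 over the totals, 23 with TMM-scaled totals and 19 with DESeq2 size factors, all of them among the 35. With counts converted for UMI collisions it was 31, 26 of them among the 35. It was 8 with a ratio of 2, 20 with a level of at least 40 CPM and 145 with no condition on single embryos. Leaving out 1 embryo of the 8- or 32-cell stage gave 33 to 40. Without 16-cell replicate 1, 2 or 3 it was 79, 87 and 51, but there fewer embryos had to lie above all others, which loosens the conditions. Leaving out 3 embryos together, 1 of them of the 16-cell stage (added after seeing the data), gave 92, 103 and 67. Of the 35, 10 remained without each embryo in turn and 9 under the 5 changes of scaling, depth or averaging. With a ratio of 2 the picks that kept the pattern in left-out embryos were 84.6%, 35.5% and 74.4% at the 8-, 16- and 32-cell stages, against 88.4%, 45.2% and 83.2% with 1.5, shares that the choice partly fixes because the embryos compared with were used in it. Genes called between the 32-cell and the 16-cell stage numbered 262, and 425 without a filter on low counts. Those called between the 16-cell and the 8-cell stage numbered 1118, and 740 to 1158 with 1 embryo left out, the fewest without 16-cell replicate 2. With 1 embryo left out, 7 to 15 of the 35 transcripts were called across the stages, the fewest without 16-cell replicate 3. With filterByExpr, 24 of the 35 were tested.

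Same-numbered embryos of different stages did not deviate together (correlations from -0.06 to 0.05 over 10 pairs), and 2 of 9 embryos correlated best with their own number. Pairs with other numbers ranged from -0.10 to 0.10 (37 pairs). The labels give no brood or batch, and whether same-numbered embryos share one was not tested. With the replicate block, 1055 genes were called between the 16-cell and the 8-cell stage and 255 between the 32-cell and the 16-cell stage.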

Other observations

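Beside the 35, 14 gene models had a separated peak of 20 CPM or more at the 16-cell stage but 8- and 32-cell levels outside the ratio of 0.67 to 1.5. All 14 were higher at the 32-cell than at the 8-cell stage and 0 the other way round. The same split by ratio was not counted over all genes of that level. By edgeR calls, 11% of all tested genes were higher and 8.98% lower at the 32-cell than at the 8-cell stage. The ratios of the 14 gene models to the 32-cell level ranged from 1.51 to 6.55 (median 1.85). Gene model 174522 had 1, 41 and 8 counts at the 8-, 16- and 32-cell stages, with single 16-cell embryos between 9.57 and 61.0 CPM. Gene model 211151 was the most abundant, with 90.3, 273 and 147 CPM at the 8-, 16- and 32-cell stages. The 4 gene models with a trough at the 16-cell stage were 201208, 17698, 167620 and 165435, with 16-cell levels of 0.367, 0.465, 0.519 and 0.620 times the lower of the other stages. These gene models were named after their values were seen.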
